A study of Mus musculus with 10 samples.

Results

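The genes described are 7 keratins (Krt5, Krt7, Krt8, Krt14, Krt17, Krt18 and Krt19) and vimentin (Vim), chosen by name as the main cytoplasmic intermediate filament genes of epithelial and mesenchymal cells. All 8 have a row in the gene table, among 55418 named genes, and 7 passed the filter on low counts. RNA was sequenced in 10 mouse mammary carcinoma lines, at 1 library per line. The starting line, called parental below, is 4T1-hHER2 (strain label BALB/cfC3H) and carries human HER2 and luciferase from a lentivirus. The other 9 lines were all grown out of NOD-SCID-GAMMA (NSG) mice and, by their labels, go back to circulating tumour cells of animals given 4T1-hHER2-Luc cells orthotopically. With numbers taken from the titles, the fat pad tumours gave primary 5, 7 and 8, the circulating tumour cells gave CTC 1, 3 and 6, and the lungs gave metastasis 5, 3 and 7. The labels do not say how many mice these lines came from or whether a line is 1 clone, so the p-values below measure only the spread between the lines.

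Intermediate filaments are rope-like polymers that give a cell mechanical strength. Keratins are obligate heteropolymers of a type I and a type II chain, so each type needs a partner of the other. Krt8 (type II) and Krt18 (type I) are the partners of simple and luminal epithelium, Krt7 (type II) and Krt19 (type I) are further simple epithelial keratins, and Krt5 (type II) with Krt14 (type I) is the partnership of basal epithelium, including mammary basal cells. Krt17 (type I) is a keratin of skin appendages, stressed epithelium and basal-like tumours. Vimentin is a type III filament protein that polymerises by itself, is typical of mesenchymal cells, and is a common marker of epithelial cells that have gained mesenchymal features.

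The type II genes lie together on chromosome 15 of GRCm38 and the type I genes Krt14, Krt17 and Krt19 on chromosome 11, while Krt18 is the exception among type I genes and sits beside Krt8. Krt8 (ENSMUSG00000049382.10) spans chr15:101996698-102004482 on the minus strand and Krt18 (ENSMUSG00000023043.7) spans chr15:102028180-102032027 on the plus strand, so the genes point away from each other across a gap of 23697 bases. Krt7 (ENSMUSG00000023039.17) spans chr15:101411043-101430313 and Krt5 (ENSMUSG00000061527.7) spans chr15:101707070-101712898. Krt19 (ENSMUSG00000020911.14) spans chr11:100140810-100148665, Krt14 (ENSMUSG00000045545.8) spans chr11:100203162-100207548 and Krt17 (ENSMUSG00000035557.9) spans chr11:100256217-100261029, all on the minus strand. Vim (ENSMUSG00000026728.9) spans chr2:13573927-13582826. The positions are those of GENCODE M21.

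The 250 bases before the RefSeq start (build GRCm38.p6) are shown for the 3 most abundant members, Vim, Krt18 and Krt8, and for Krt7, all compared below. The RefSeq start is not the outer end of the GENCODE span given above. The Vim and Krt7 windows lie inside those spans, and the Krt8 and Krt18 windows lie inside in part. Capitals mark CACCTG on either strand (read as CACCTG or CAGGTG), the E-box form known to be bound by repressors of epithelial genes such as Snail and Zeb, and TATAAA on either strand (read as TATAAA or TTTATA), the core of a TATA box.
Krt7 promoter, chr15:101412153-101412402, plus strand: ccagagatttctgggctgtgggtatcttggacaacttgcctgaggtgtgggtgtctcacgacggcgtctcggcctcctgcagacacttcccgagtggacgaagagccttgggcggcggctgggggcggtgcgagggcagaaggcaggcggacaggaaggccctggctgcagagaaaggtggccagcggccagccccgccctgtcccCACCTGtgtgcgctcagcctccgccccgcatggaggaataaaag
Krt8 promoter, chr15:102004343-102004592, minus strand: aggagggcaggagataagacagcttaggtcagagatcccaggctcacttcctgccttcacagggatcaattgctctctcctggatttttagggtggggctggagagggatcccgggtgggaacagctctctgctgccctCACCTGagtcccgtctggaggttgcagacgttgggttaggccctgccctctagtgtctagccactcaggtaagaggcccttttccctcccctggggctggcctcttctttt
Krt18 promoter, chr15:102027966-102028215, plus strand: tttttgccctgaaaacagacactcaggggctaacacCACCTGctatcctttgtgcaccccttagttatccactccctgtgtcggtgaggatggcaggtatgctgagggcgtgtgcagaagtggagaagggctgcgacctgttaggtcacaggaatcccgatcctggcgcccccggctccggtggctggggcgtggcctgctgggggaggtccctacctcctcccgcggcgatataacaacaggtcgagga
Vim promoter, chr2:13574061-13574310, plus strand: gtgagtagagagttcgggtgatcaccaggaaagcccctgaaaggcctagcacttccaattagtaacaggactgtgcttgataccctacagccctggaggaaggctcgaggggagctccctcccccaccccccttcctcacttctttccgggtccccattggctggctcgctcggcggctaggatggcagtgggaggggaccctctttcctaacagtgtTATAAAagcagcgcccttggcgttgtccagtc
In these windows Krt7, Krt8 and Krt18 each hold CACCTG 1 time, beginning 44, 111 and 214 bases before the RefSeq start. Vim holds no CACCTG and 1 TATAAA, beginning 32 bases before the RefSeq start. The matches of Krt7, Krt8 and Vim fall inside the GENCODE spans, and that of Krt18 does not. Krt5 also holds 1 CACCTG. Of 32851 mouse promoter windows of this length, 17.2% hold CACCTG and 12.4% hold TATAAA. A match is a description of the letters only. The promoter listed for Krt14 starts at a non-coding transcript and is not shown, and Krt17 and Krt19 were not matched.

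Levels are CPM, counts per 1000000 counts of the scaled total of the tested named genes, which was 64577659 to 76854193 per library. With entries that have no gene name included, the libraries held 79869760 to 97722716 estimated counts. Of the epithelial markers, Epcam and Cdh1 were present in each library, at 15.7 to 204 CPM and 77.7 to 627 CPM. The claudins of the same list fell lower. Cldn3 ran from 5.92 CPM in metastasis 5 to 165 CPM in primary 7. Cldn4 ran from 13.6 CPM in CTC 1 to 492 CPM in the parental line, and Cldn7 from 1.36 CPM in CTC 6 to 22.3 CPM in primary 7. Of 9 leukocyte markers 8 stayed under 1 CPM, with Ptprc at up to 0.232 CPM and Cd68 at up to 7.14 CPM in CTC 6. Markers of endothelium, lung epithelium, muscle and adipocytes stayed under 5 CPM, and 3 of 3 globin genes were at 0. On the fibroblast list, whose cells also make vimentin, the collagen Col1a1 was at most at 2.32 CPM and Col3a1 at 0.325 CPM, while Pdgfrb reached 18.7 CPM and Dcn 12.4 CPM, both in metastasis 5, and Pdgfrb was at 15.3 CPM in primary 5. The summed list ran from 5.07 to 77.3 CPM in primary, 11 to 142 CPM in CTC and 16 to 303 CPM in metastasis lines against 5.1 CPM in the parental line, and most of the highest sum was Pdgfra, at 269 CPM in metastasis 5. The part of such cells in the Vim levels was not tested. In a library of bulk RNA, fewer cells that make a filament protein and less RNA of it per cell cannot be told apart.

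Vimentin was the most abundant of these RNAs per length in 8 of 10 libraries, and its levels overlapped between the derived groups. Vim was at 301 CPM in the parental library and at 3720, 2120 and 955 CPM in primary 5, 7 and 8. It was at 4750, 4490 and 1440 CPM in CTC 1, 3 and 6, and at 2020, 3440 and 584 CPM in metastasis 5, 3 and 7. The 9 derived lines all lay above the parental line, and CTC 1 and CTC 3 were highest. Vim averaged 2260 ± 1390 CPM (SD, n = 3) over the primary lines, 3560 ± 1840 CPM (SD, n = 3) over the CTC lines and 2010 ± 1430 CPM (SD, n = 3) over those from lung.

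Krt18, the most abundant keratin RNA per length in each of the 10 libraries, was highest in the lines with the most Vim, CTC 1 and CTC 3. Krt18 was at 404 CPM in the parental library and at 1210, 1080 and 1060 CPM in primary 5, 7 and 8. It was at 1460, 1400 and 588 CPM in CTC 1, 3 and 6, and at 1160, 1320 and 303 CPM in metastasis 5, 3 and 7. CTC 6, metastasis 7 and the parental line were the low ones and the other 7 lines lay within 1060 to 1460 CPM. The primary lines were closely alike, at 1120 ± 80.6 CPM (SD, n = 3), against 1150 ± 486 CPM (SD, n = 3) over the CTC lines and 927 ± 547 CPM (SD, n = 3) over those from lung.

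The row of Krt8, the partner of Krt18, ran only loosely with Krt18. Krt8 was at 54.7 CPM in the parental library and at 471, 147 and 626 CPM in primary 5, 7 and 8. It was at 210, 901 and 380 CPM in CTC 1, 3 and 6, and at 114, 1230 and 318 CPM in metastasis 5, 3 and 7. Each derived group thus had a low and a high line, and the highest library was 22.5 times the lowest, against 4.83 times for Krt18. Over the 10 libraries the correlation of log2 levels of Krt8 with Krt18 was 0.4 (Pearson).

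Values of 2 other rows are given beside those of the Krt8 row. Krt8-ps, an annotated pseudogene copy on chromosome 7 (chr7:23357125-23358069) that shares 26.9% of the 50-base windows of the Krt8 transcript, was at 2.73 CPM in the parental library and at 10.4, 12.5 and 5.99 CPM in primary 5, 7 and 8. It was at 13.3, 14.2 and 3.6 CPM in CTC 1, 3 and 6, and at 11.2, 14.2 and 3.42 CPM in metastasis 5, 3 and 7. Over the 10 libraries its log2 level correlated at 0.92 with Krt18 and at 0.37 with the Krt8 row (Pearson). The table also holds 17126 assembled entries with no gene name. Of the 5597 that reached 20 CPM in a library, the 1 whose sum with the Krt8 row ran most parallel to Krt8-ps was MSTRG.8152.2, chosen after its values were seen and with no position in the files. It was at 680, 957 and 585 CPM in primary 7, CTC 1 and metastasis 5, the lowest line of each derived group for the Krt8 row, at 159 CPM in the parental library and 59 CPM in metastasis 3, and at 0 in the other 5 libraries. The sum of this entry and the Krt8 row was 214 CPM in the parental library, 641 ± 178 CPM (SD, n = 3) over the primary lines, 816 ± 400 CPM (SD, n = 3) over the CTC lines and 769 ± 490 CPM (SD, n = 3) over those from lung. Its highest library was 6.03 times its lowest, and its correlation with Krt18 was 0.87, which is no independent check, since the choice followed Krt8-ps and Krt8-ps itself ran with Krt18. Whether the entry holds Krt8 reads was not tested, and values of the Krt8 row are given below with that limit. Gm36026, which overlaps Krt8 on the opposite strand, stayed at or below 1.65 CPM.

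**Figure D1:**
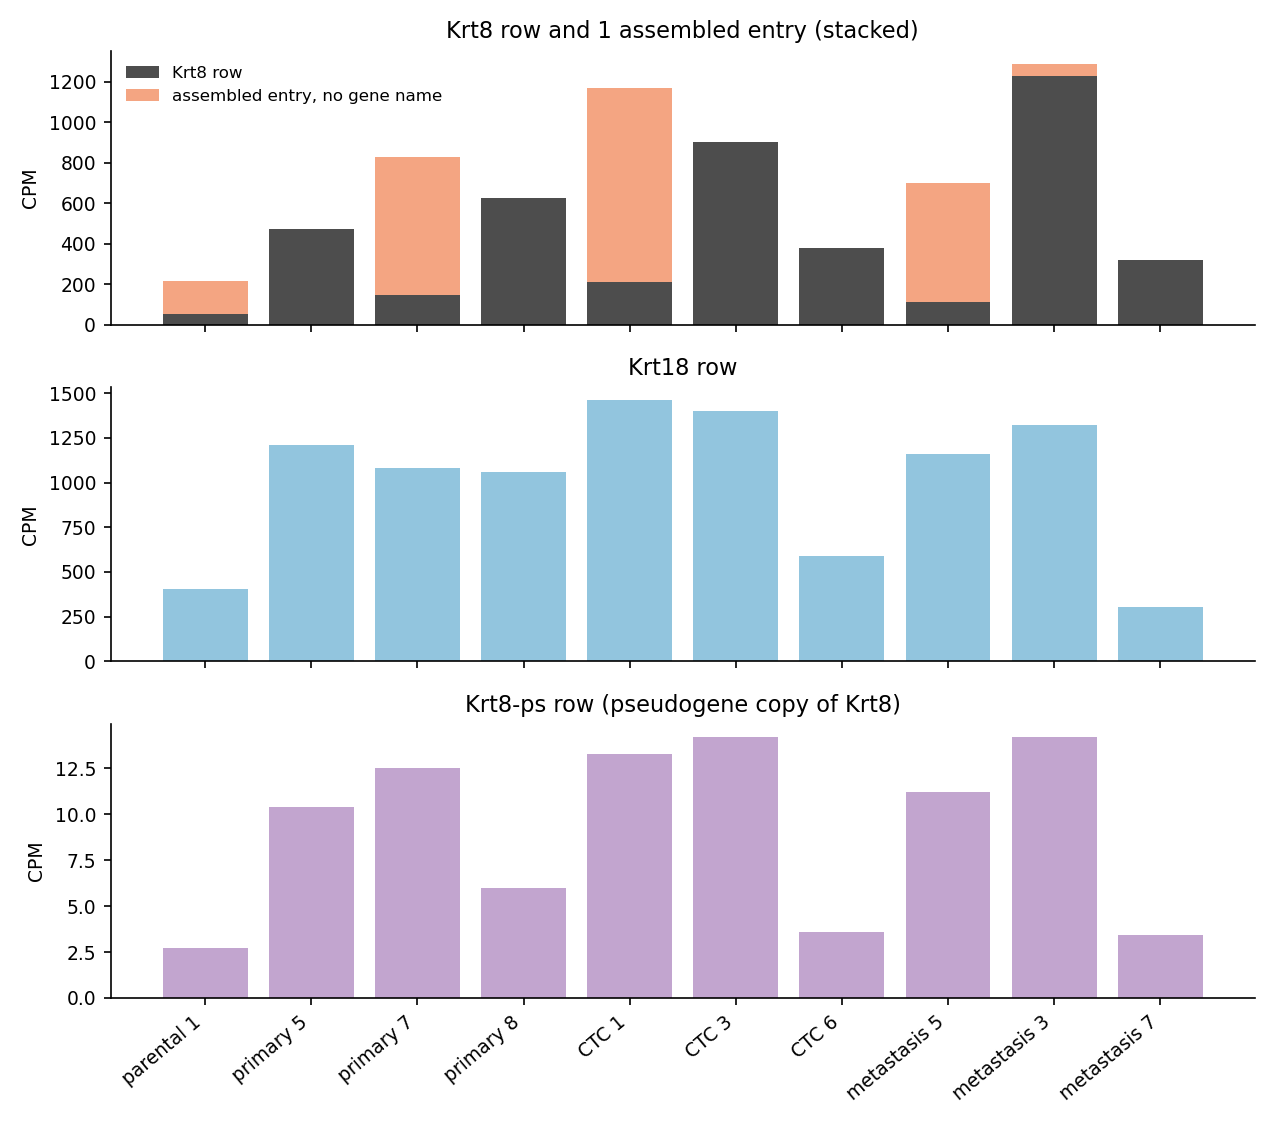
Bars show CPM (linear axes) in each of the 10 libraries for the Krt8 row with the assembled entry MSTRG.8152.2 stacked on it (top), Krt18 (middle) and the pseudogene row Krt8-ps (bottom). The entry is high where the Krt8 row is low (parental 1, primary 7, CTC 1, metastasis 5), and the stacked height runs closer to Krt18 than the Krt8 row alone does (Pearson 0.87 against 0.4), for an entry chosen by its fit to Krt8-ps.

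Krt7 and Krt19, the further simple epithelial keratins, were highest in primary 7 and primary 8. Krt7 was at 272 CPM in the parental library and at 206, 1180 and 957 CPM in primary 5, 7 and 8. It was at 233, 276 and 301 CPM in CTC 1, 3 and 6, and at 73.8, 242 and 115 CPM in metastasis 5, 3 and 7. The CTC lines were closely alike and near the parental level, primary 7 and 8 stood above the other libraries, and primary 5 lay inside the range of the metastasis lines. Krt7 overlaps Gm671 on the opposite strand, which stayed at or below 0.829 CPM. Its main coding transcript (ENSMUST00000068904) took 92.6% of its counts and a transcript with a retained intron (ENSMUST00000131069) 7.44%, a share that was 19% in metastasis 5 and 5.12% to 9.39% elsewhere.

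Krt19 had the widest range of the well-expressed members. It was at 53.2 CPM in the parental library and at 18.2, 121 and 262 CPM in primary 5, 7 and 8. It was at 1.49, 0.774 and 40.5 CPM in CTC 1, 3 and 6, and at 4.91, 2.53 and 30.3 CPM in metastasis 5, 3 and 7. The highest library was 339 times the lowest. CTC 1, CTC 3, metastasis 3 and metastasis 5 were under 5 CPM, primary 5 stood between, and CTC 6 and metastasis 7 were near the parental line, so lines of every derived group overlapped.

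Krt14 and Krt17 stayed under 10 CPM in each library except primary 7. Krt14 was at 1.33 CPM in the parental library and at 3.23, 78.3 and 9.15 CPM in primary 5, 7 and 8. It was at 0, 0.0619 and 0.366 CPM in CTC 1, 3 and 6, and at 0.052, 0 and 0.682 CPM in metastasis 5, 3 and 7. Each primary line lay above each CTC and metastasis line, and primary 7 was far above the rest. Krt17 was at 0 in the parental library and at 0.795, 84.7 and 1.76 CPM in primary 5, 7 and 8. It was at 0.08, 0.108 and 0.29 CPM in CTC 1, 3 and 6, and at 0.0781, 0.0786 and 4.99 CPM in metastasis 5, 3 and 7. Primary 7 was again highest and metastasis 7, which carries the same number, came next. A count of 0 in the parental library allows up to 0.0425 CPM (3 counts), and several of the low values above are near that level. Krt16, a type I keratin of stressed epidermis that shares 11.4% of the 50-base windows of Krt14, was also highest in primary 7, at 5.17 CPM against 0 to 1.2 CPM elsewhere. How the counting divided reads between these paralogs was not tested.

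Krt5, the type II partner of Krt14, was listed at 0 in each of the 10 libraries, also in primary 7. A count of 0 allows 0.039 to 0.0465 CPM per library (3 counts). Krt6a and Krt6b, which share sequence with Krt5, were listed at 0 too. Reads of a named gene can be counted under an assembled entry, and this was not tested for Krt5.

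**Figure D2:**
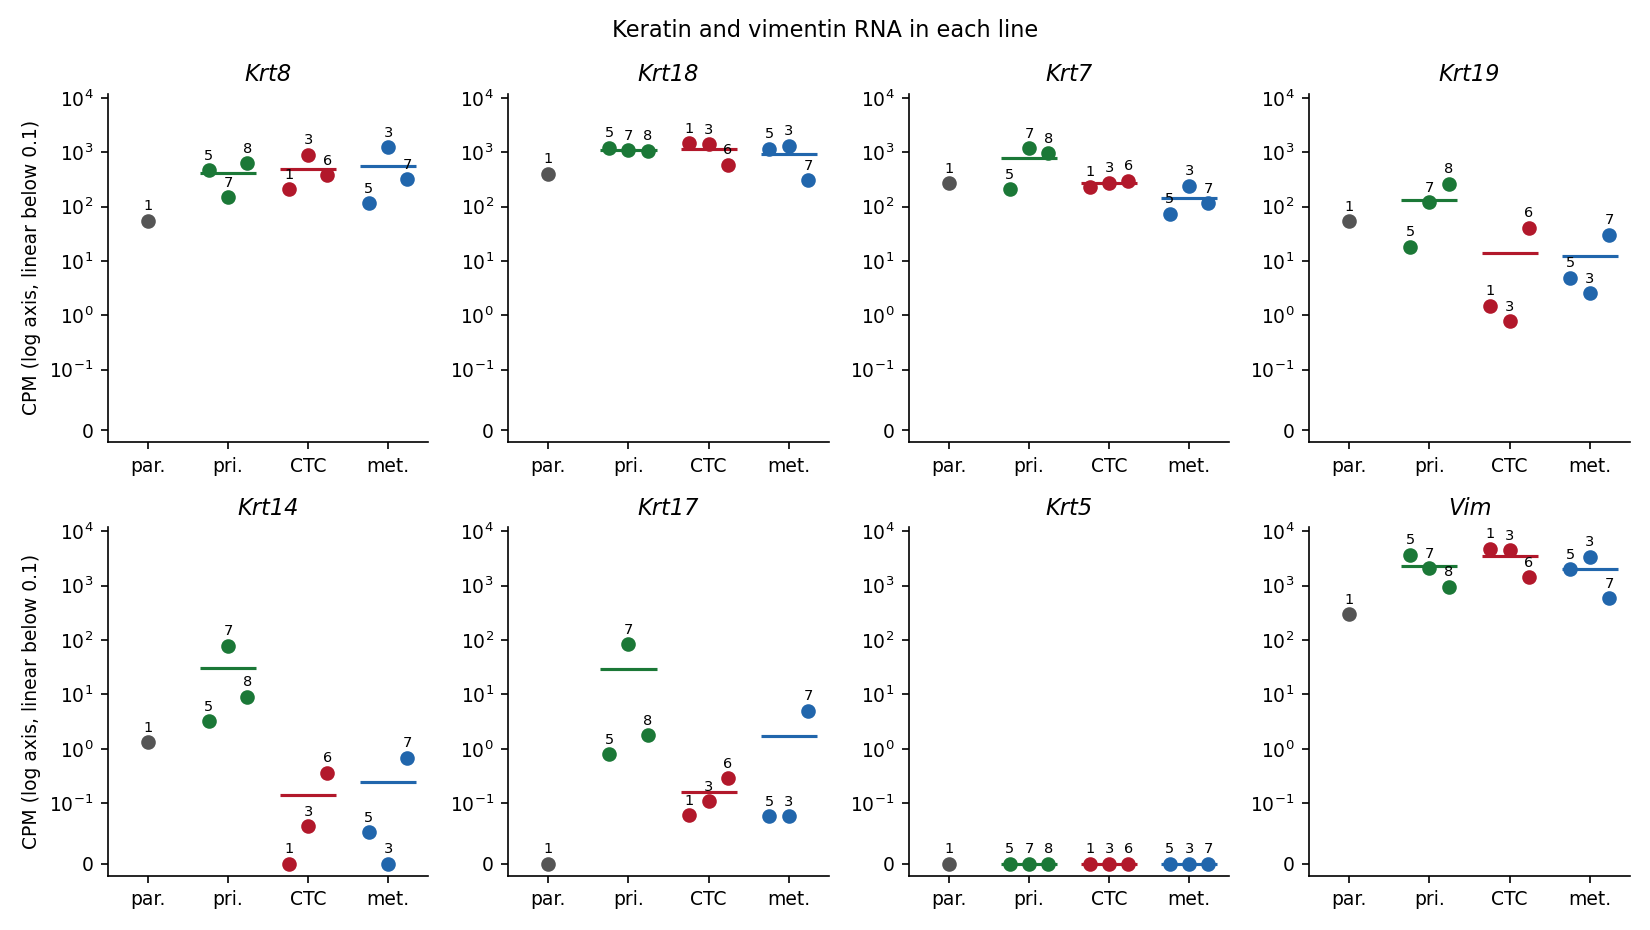
Each point is the level of 1 library in CPM (log axis, linear below 0.1), by group (parental, primary, CTC, metastasis), with the number of the line above it and the group mean as a bar. Krt14 and Krt17 peak in primary 7 (78.3 and 84.7 CPM), Krt19 runs from 0.774 to 262 CPM, Krt5 is at 0 throughout, and the points of the derived groups overlap for Vim, Krt8, Krt18, Krt7 and Krt19.

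To compare the genes with each other, CPM were divided by transcript length (CPM per kilobase). On this scale Vim was the highest of the 8 genes in 8 of 10 libraries, and Krt18 was the highest in the other 2, the parental line and primary 8. Among the keratins Krt18 came first in 10 of 10 libraries, and the second was Krt8 in 8 libraries and Krt7 in the parental line and primary 7. The assembled entry MSTRG.8152.2 is left out here and was at 159 CPM in the parental line and 680 CPM in primary 7. The order of Krt7 and Krt8 there thus holds for the Krt8 row alone. Krt18 made up 80.8% to 99.9% of the type I members. It fell short of 90% in primary 7 (80.8%), primary 8 (81%) and the parental line (89%), where Krt19 took 8.33%, 18.3% and 10.7%. The type II members Krt5, Krt7 and Krt8 summed to less than the type I members in 10 of 10 libraries. The ratio of type I to type II was 1.22 to 3.31 in 8 libraries, but 6.2 in CTC 1 and 10.5 in metastasis 5, where the Krt8 row was low and the assembled entry high. Primary 7 and the parental line also had a low Krt8 row with the entry present, yet had ratios of 2.53 and 3.31. Krt7 took 79.6% and 70.7% of their type II members.

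The ratio of Vim to the summed keratins, per length, was 0.338 in the parental line. It was 1.52, 0.76 and 0.301 in primary 5, 7 and 8. It was 1.9, 1.42 and 0.948 in CTC 1, 3 and 6, and 1.06, 1 and 0.637 in metastasis 5, 3 and 7. The CTC lines averaged 1.42 ± 0.476 (SD, n = 3), primary lines 0.859 ± 0.614 (SD, n = 3) and metastasis lines 0.901 ± 0.231 (SD, n = 3), and the groups overlapped. The keratin sum holds the Krt8 row without the assembled entry, which was at 957, 680 and 585 CPM in CTC 1, primary 7 and metastasis 5. Counting the entry would lower the ratio in those lines, so the order of lines and group means has that limit. Primary 8 had as low a ratio as the parental line, by way of a higher keratin sum (1470 against 411 CPM per kilobase) and not of a lower Vim level (442 against 139).

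**Figure D3:**
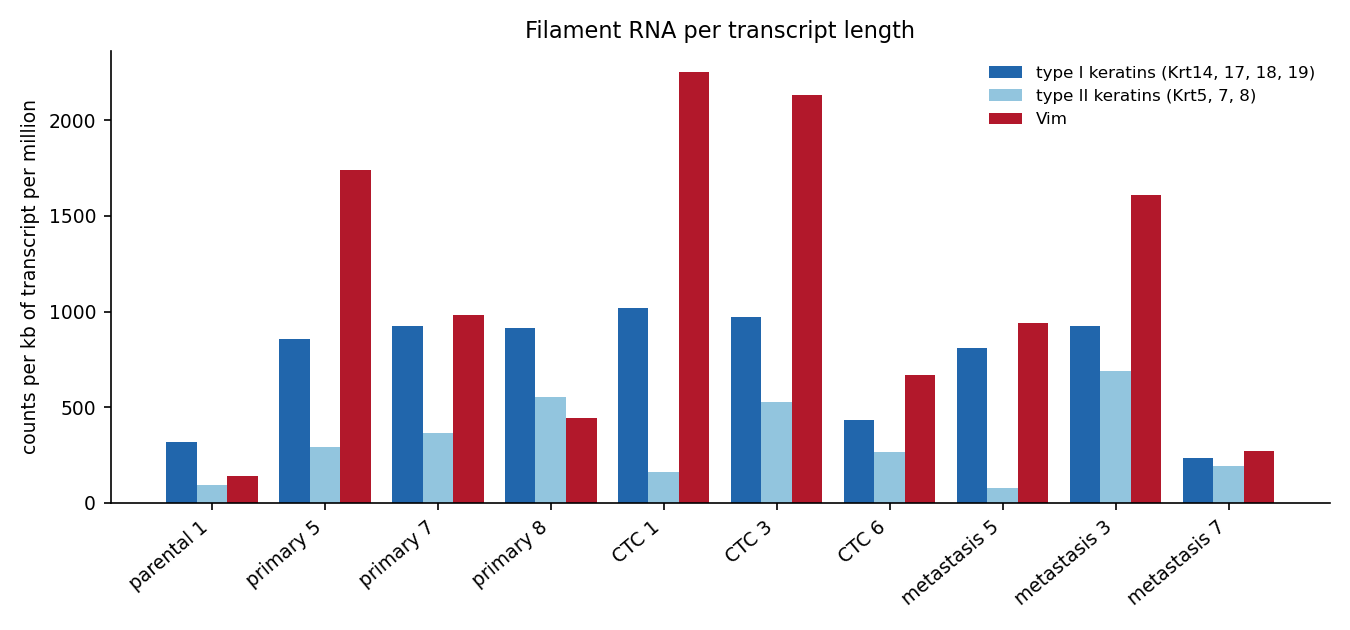
Bars show the summed type I keratins (Krt14, Krt17, Krt18, Krt19), the summed type II keratins (Krt5, Krt7, Krt8) and Vim in each library, as CPM per kilobase of transcript (linear axis). Vim exceeds the type I sum by most in CTC 1 (2250 against 1020) and lies below it in parental 1 and primary 8.

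Across the lines, Krt18 ran with Vim while Krt19 ran the other way. Over the 10 libraries the correlation of log2 CPM between Vim and Krt18 was 0.87 (Pearson) and 0.95 (Spearman). It was 0.84 in the 9 derived lines, and 0.68 without the parental line and metastasis 7, the 2 libraries farthest from the median of Vim. Between Vim and Krt19 it was -0.67 (Pearson) and -0.73 (Spearman), and -0.83 without those 2 libraries. Vim and Krt7 gave -0.03. These are descriptions, since the libraries share ancestry and a common axis of variation: the first principal component of all tested genes held 40.4% of the variance, and its correlation was 0.83 with Vim, 0.66 with Krt18, -0.7 with Krt14 and -0.9 with Krt19. Of the genes with a mean log2 CPM of at least 3, 2.73% had a correlation with Vim as high as that of Krt18, and 17.2% one as low as that of Krt19.

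**Figure D4:**
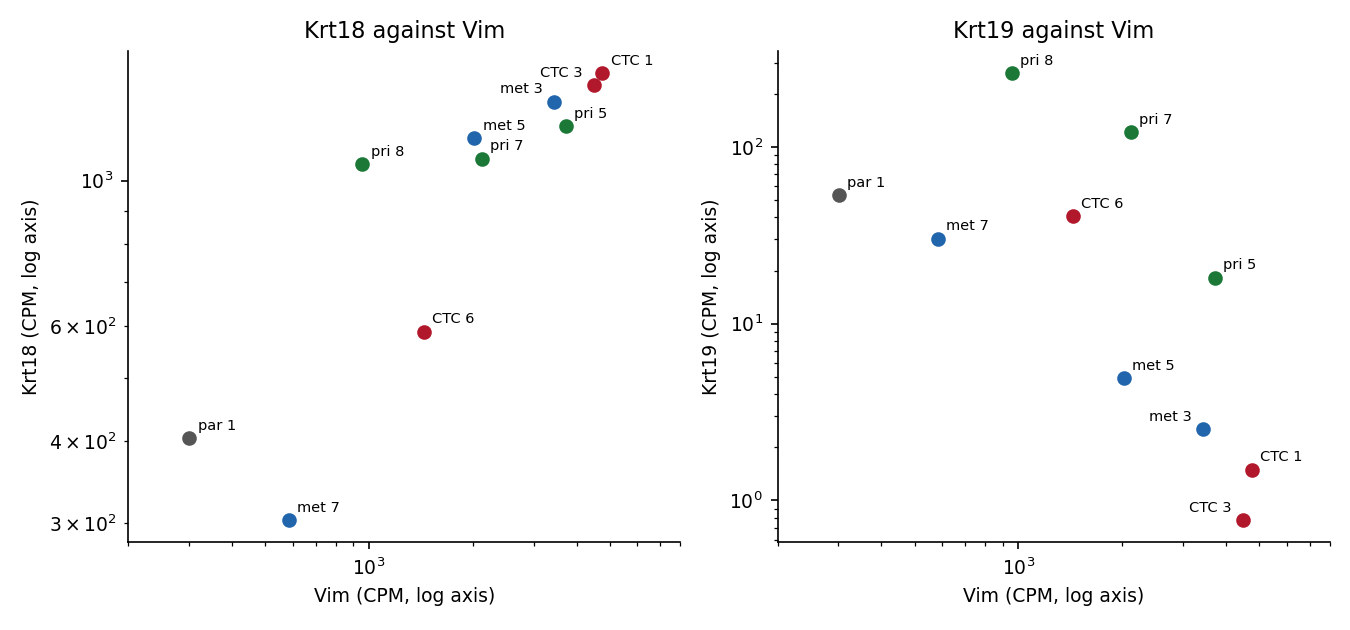
Each point is 1 library (par, pri, CTC and met with the number of the line), with Vim on the x axis and Krt18 (left) or Krt19 (right) on the y axis, both in CPM on log axes. Krt18 is lowest in metastasis 7, parental 1 and CTC 6 and highest in CTC 1 and CTC 3, while Krt19 is lowest in CTC 3 (0.774 CPM) and CTC 1 (1.49 CPM).

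The genes whose log2 levels were most alike over the 10 libraries were found among 8934 or 8935 genes of a mean log2 CPM of at least 3. For Vim they were Acap3 (0.975), Krcc1 (0.965) and Pqlc3 (0.965), with 127 genes at 0.9 or more. For Krt18 they were Tln1, which encodes talin, the link from integrins to actin (0.962), Dhrs1 (0.958) and Rtn4 (0.953). For Krt19 they were Letm1 (0.971), Tbc1d2 (0.963) and the Notch ligand Jag1 (0.963), with 148 genes at 0.9 or more. For Krt7 they were Ipo11 (0.969), Rangap1 (0.946) and the ERK phosphatase Dusp5 (0.945). For Krt14 they were Cpne8 (0.948), Epcam, which encodes an epithelial adhesion protein (0.946), and the transcription factor Srf (0.936). For Krt17 they were Serpinb9 (0.943), AI661453 (0.941) and Ptpn22 (0.921). The Krt8 row had 0 genes at 0.9 or more, the closest being Snapc1 (0.879), Dnajc27 (0.868) and Prss12 (0.865).

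The spread between lines was wide for most members when set against other genes. Among 9315 genes with a mean of at least 10 CPM, the median SD of log2 levels over the 9 derived lines was 0.45. It was 2.7 for Krt19, above 99.8% of these genes, 1.28 for Krt7 (95.5%), 1.16 for the Krt8 row (93.9%), 1.05 for Vim (92%) and 0.74 for Krt18 (80.3%). Krt14 and Krt17 averaged under 10 CPM and were not ranked.

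Metastasis against primary asks whether lines from lung differ in their filament genes from lines from fat pad tumours. Of the 7 tested members, 6 were lower and 1 higher in the metastasis lines, with a median log2 change of -2.44 against 0.01 over all 19936 tested genes. None passed the quasi-likelihood test of edgeR (Benjamini-Hochberg adjusted p under 0.05), nor did any other gene (0%). Krt7 had a log2 change of -2.44 (SE 0.64) and Krt14 of -6.95 (SE 2.05), with unadjusted p of 0.00384 and 0.00789 and adjusted p of 0.594 for each by edgeR. An unadjusted p under 0.05 was found for 2 members and for 8.29% of all genes. Krt19 (-3.41, SE 1.63), Krt17 (-4.08, SE 2.04), Krt18 (-0.27, SE 0.52), Vim (-0.17, SE 0.70) and the Krt8 row (0.42, SE 0.87) gave adjusted p of 0.594 to 0.954 by edgeR. The groups did not overlap for Krt14 alone, which was lower in the metastasis lines. Of all genes, 7.27% were lower and 6.38% higher without overlap. Krt14 and Krt17 passed the filter through the few libraries where they are high, so their counts add no support. The same holds for the count and median of the members, which include them. Apart from them, Krt19 and Krt7 were lower, while Krt18, Vim and the Krt8 row lay within 1 SE of 0. DESeq2 called Krt7 (adjusted p 0.022), along with 1.2% of genes, and gave no p for Krt17. Without primary 7 the change was 0.45 for Krt17 and -4.63 for Krt14, and without metastasis 7 it was -8.51 and -10.09. The change of Krt19 was -5.17 without metastasis 7. With the number of the line as a fixed block, the change was -1.94 for Krt19 and -1.37 for Vim.

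CTC against primary asks the same of lines from circulating tumour cells, with the primary lines shared between these comparisons. Here 4 members were lower and 3 higher, with a median log2 change of -1.53 against -0.01 over all genes. None passed, and 0% of all genes did. Krt14 had a log2 change of -7.73 (SE 2.14), Krt17 of -7.50 (SE 2.42) and Krt7 of -1.53 (SE 0.62), with unadjusted p of 0.00549, 0.0125 and 0.0343 and adjusted p of 0.994 for each by edgeR. An unadjusted p under 0.05 was found for 3 members and for 4.06% of all genes. Krt19 had a log2 change of -3.23 (SE 1.62), Vim of 0.65 (SE 0.70), the Krt8 row of 0.26 (SE 0.87) and Krt18 of 0.04 (SE 0.51). The groups did not overlap for Krt14 and Krt17, both lower in the CTC lines. Of all genes, 4.02% were lower and 3.13% higher without overlap. Here too Krt14 and Krt17 passed the filter through the few libraries where they are high. Their p-values and their lack of overlap therefore add no support, nor do the count and median of the members, which include them. Apart from them, Krt19 and Krt7 were lower, while Vim, the Krt8 row and Krt18 were not. DESeq2 called 0 members and 0.34% of genes. Without primary 7 the change was -2.98 for Krt17 and -5.42 for Krt14, and with the number of the line as a fixed block it was -3.31 and -1.27 (SE 2.88 for Krt14). The change of Krt19 was -6.88 without CTC 6 and -2.28 without primary 8. That of Vim ran from 0.29 without primary 8 to 1.21 without primary 5, and was -0.97 with the block. With the block, CTC 3 is the only CTC line that enters, by way of metastasis 3, since CTC and primary lines share no number.

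Metastasis against CTC asks whether lines from lung differ from lines from the blood. Of the 7 members 3 were higher and 4 lower, with a median log2 change of -0.18 against 0 over all genes. None passed, against 0.00502% of all genes, and 0 members had an unadjusted p under 0.05 by edgeR, against 3.29% of all genes. The changes were -0.91 (SE 0.61) for Krt7, -0.82 (SE 0.70) for Vim, -0.31 (SE 0.52) for Krt18 and 0.16 (SE 0.87) for the Krt8 row, as log2. Krt19 was at -0.18 (SE 1.49), Krt14 at 0.78 (SE 1.74) and Krt17 at 3.42 (SE 2.05), the last resting on metastasis 7, without which it was -1. The approximate 95% interval (the log2 change with its SE on a normal scale) was -1.32 to 0.7 for Krt18 and -2.2 to 0.55 for Vim, so changes of several-fold could not be told from none with 3 lines a group. The groups overlapped for all 7, while 4.43% of all genes were higher and 3.85% lower without overlap. DESeq2 called 0 members and 0.153% of genes.

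**Figure D5:**
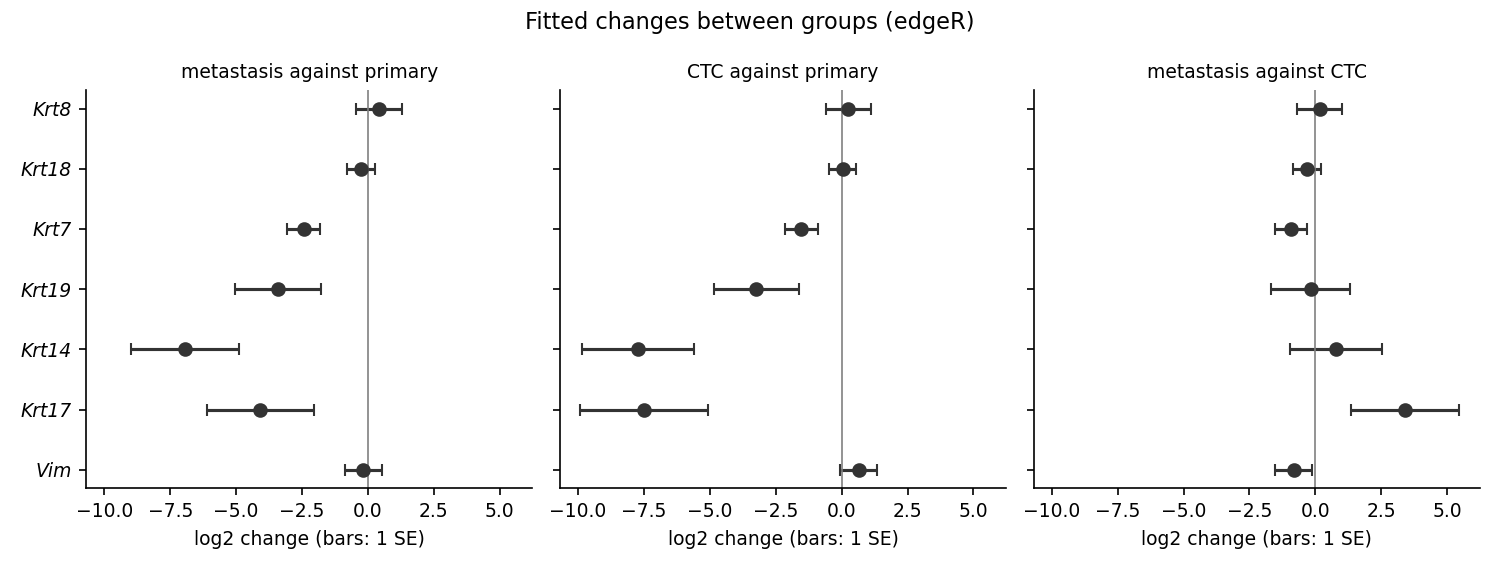
Points show the fitted log2 change of each tested member in the 3 comparisons between derived groups, and bars show 1 SE (linear axis). Krt14, Krt17, Krt19 and Krt7 lie below 0 against primary in both comparisons, with the widest bars for Krt14 and Krt17, while Krt18, Vim and the Krt8 row lie within 1 SE of 0 in those comparisons.

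The derived lines against the parental line asks what differs after passage through the animal. Vim was higher in 9 of 9 derived lines, with a log2 change of 3.07 (SE 1.17), an unadjusted p of 0.0272 and an adjusted p of 0.482 by edgeR. The Krt8 row was higher in 9 of 9 lines too, with a log2 change of 3.15 (SE 1.46), which was 1.79 (SE 0.81) for the sum with the assembled entry, and adjusted p of 0.489 and 0.485 by edgeR. Krt18 was higher in 8 of 9 lines (1.39, SE 0.75), Krt7 in 4 of 9 (0.19, SE 0.79) and Krt19 in 2 of 9 (-0.88, SE 1.77). Krt14 gave -0.39 (SE 1.96), and Krt17, with 0 counts in the parental library, is given no fold. None of the 7 members passed, against 0.0201% of all genes (0.00502% higher and 0.015% lower). An unadjusted p under 0.05 was found for 1 member and for 10.3% of all genes by edgeR, and the median log2 change of the members was 1.39 against 0.1 over all genes. That median is the value of Krt18, and it holds for any value of Krt17 above it. DESeq2 called Vim (adjusted p 0.033) and 4.32% of genes, and limma-voom 0 members and 0.12% of genes. The parental line has 1 library and no replicate, so a change after passage and the state of this 1 culture cannot be told apart.

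The other keratin genes were mostly silent: 47 further keratins have a row and 11 were tested. Krt80, an epithelial type II keratin, was the most abundant of them, at 73.1 CPM in the parental library and at 28, 111 and 125 CPM in primary 5, 7 and 8. It was at 13.7, 21.8 and 30.5 CPM in CTC 1, 3 and 6, and at 9.65, 14.1 and 16.8 CPM in metastasis 5, 3 and 7. Its log2 level correlated with that of Krt19 (Pearson 0.81). Each metastasis line lay below each primary line (log2 change -2.70, SE 0.56, adjusted p 0.594 by edgeR). That was so for 7.27% of all genes, and not for Krt19. Krt10, a keratin of differentiated epidermis, averaged 5.48 CPM and the others named by the rule, Krt16, Krt23, Krt87 and Krt88, averaged under 1 CPM. Among these 6 genes Krt23, a type I keratin, had the highest correlation with Vim (Pearson 0.82), at up to 1.84 CPM in CTC 1 and 0 in the parental line. None of the 11 passed in any of the 4 comparisons. Of the 11, 9 were lower in metastasis than in primary lines (median log2 change -2.70), against 9873 of 19936 genes (median 0.01), and 9 were lower in CTC lines (median -1.23), against 10084 of 19936 (median -0.01). Some of them passed the filter through primary libraries alone, among them Krt20, with 15 counts, all in primary 7, and Krt15, with 12 counts in primary 5, 11 in primary 8 and 0 elsewhere, so the counts and medians of the list are no support for a direction.

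Among 15 further intermediate filament genes 12 were tested. The nuclear lamins and nestin led: Lmna, which encodes lamins A and C, averaged 870 CPM (516 in metastasis 7 to 1300 in primary 7), the type IV filament gene Nes 163 CPM, Lmnb1 115 CPM and Lmnb2 34.4 CPM, while Sync, a muscle filament gene, averaged 3 CPM. Nes was highest in primary 7 (390 CPM), as were Lmnb1 (193 CPM) and Lmnb2 (63.9 CPM). None of the 12 passed in any comparison, with 7 higher and 5 lower in metastasis than in primary lines. The median log2 change was 0.65, against 0.01 over all genes. The abundant Lmna (-0.6), Nes (-0.96), Lmnb1 (-0.49) and Lmnb2 (-0.68) were among the lower ones. Des, Nefh, Gfap and Bfsp2, among the higher ones, averaged at most 0.226 CPM, so the median rests in part on genes near the floor. The 17 filament partners, which are plakins, desmosomal plaque proteins and other filament-linked proteins, were all tested and none passed. Of these, 13 were lower in metastasis than in primary lines (median -0.32), against 9873 of 19936 genes (median 0.01). In CTC lines 13 were lower (median -0.40), against 10084 of 19936 genes (median -0.01). The most abundant were Dnajb6, a chaperone that binds Krt18 (139 CPM), Plec, which encodes the cross-linker plectin (139 CPM), Pnn (137 CPM), the plakoglobin gene Jup (133 CPM) and Bag1 (132 CPM). Pnn, which encodes pinin, ran against Krt18 (Pearson -0.87) and Vim (-0.82).

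The lines that share a number in their titles shared some features of these genes and differed in others. Primary 5 and metastasis 5 had the lowest Krt7 of their groups (206 and 73.8 CPM). CTC 3 and metastasis 3 had the highest Krt8 row of theirs (901 and 1230 CPM). With the assembled entry added, CTC 1 was above CTC 3 (1170 against 901 CPM). Primary 7 and metastasis 7 had the highest Krt17 of theirs (84.7 and 4.99 CPM). Against this, primary 7 had the highest Krt7 of its group (1180 CPM) and metastasis 7 did not (115 CPM). Metastasis 7 had the lowest Krt18 of its group (303 CPM) and primary 7 did not (1080 CPM). What the number stands for is not given in the labels, and these values were chosen after they were seen.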

How the data were processed

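RNA-seq libraries of 10 lines were used. The deposited gene and transcript tables hold estimated counts per entry, not scaled to library size; per the submitters' processing notes the tools were DESeq2 1.26.0, HISAT2 2.1.0 and StringTie 2.0.3, with the build GRCm38, and the annotation release and the use of strand are not given in the sources used here. The labels give polyA RNA and also a total RNA library kit. StringTie estimates counts from coverage and can assign reads of a gene to an assembled transcript, and assembled entries held 19.7% to 22.8% of the counts of a library. Members, lists and comparisons were chosen with earlier results of these data known.

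Rounded counts of named genes were tested with edgeR 4.0.16 (R 4.3.3): TMM factors, filterByExpr at its defaults, 1 quasi-likelihood fit of 4 groups over all 10 libraries, and Benjamini-Hochberg adjustment at 0.05 over 19936 genes. The smallest group has 1 library, so a gene high in 1 library passes the filter. The common biological coefficient of variation was 0.606. CPM uses TMM-scaled totals of the tested genes. Standard errors are the log2 change over the square root of F. Per-length values divide each transcript's count by its GENCODE M21 length. Likeness and principal components use log2 CPM (prior count 2), and the SD ranking adds 0.5 CPM. Named genes were the members, the 6 most abundant other keratins, the 5 most abundant of each other list, and the 3 genes most correlated with each member, leaving out predicted genes and pseudogenes. Sequence sharing used exact 50-base windows of GENCODE transcripts. Same-number lines were treated as paired in alternatives, on values alone: deviations from group means correlated at 0.401 (5), 0.114 (7) and 0.508 (3), with a median of -0.0535 over pairs of different number, of which CTC 6 with metastasis 7 (0.605) and primary 8 with CTC 6 (0.564) were above all 3. DESeq2 1.42.0 and limma 3.58.1 were used in alternatives. The edgeR script was tested on simulated data. Promoters are from RefSeq.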

Additional observations from a re-analysis of the deposited data

Results flagged for a closer look

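An entry outside the tested named genes carried a high signal. MSTRG.8152.2, an assembled transcript tied to no gene, was at 957 CPM in CTC 1, 680 CPM in primary 7 and 585 CPM in metastasis 5, against 159 CPM in the parental line. It was picked after its values were seen, as the entry of 5597 whose sum with the Krt8 row ran most parallel to Krt8-ps: the SD of the log2 ratio to Krt8-ps was 0.39 for the sum, against 1.37 for the Krt8 row alone and 0.71 for the next best entry. The SD of the log2 ratio to Krt18 was 0.42 for the sum and 1.31 for the Krt8 row alone, which restates the choice, since Krt8-ps ran with Krt18 (Pearson 0.92). A further entry with the same locus number, MSTRG.8152.1, ranked 3 by the same measure and was at up to 709 CPM in CTC 3. Whether these entries hold reads of Krt8 was not tested.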

How the results depend on the processing

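The number of members called was 0 in each of the 4 comparisons under every alternative run except DESeq2, which called 1 (Krt7) in metastasis against primary and 1 (Vim) in the derived lines against parental. Over all genes edgeR called 0 in metastasis against primary, 0 in CTC against primary, 1 in metastasis against CTC and 4 in derived against parental. In the same order the calls were, for DESeq2, 187, 66, 28 and 673, for limma-voom, 0, 0, 1 and 24, and for edgeR with assembled entries included, 0, 0, 0 and 42. The random block gave 1, 0, 1 and 19, the fixed block 0 between derived groups, and leaving out 1 line 4 to 6 for derived against parental. With the number as a replicate block, which pairs the lines, 0 members were called in the fixed and in the random block, so the block changed no call. Both small and large changes turned sign. With the fixed block, metastasis against CTC rests on metastasis 3 and CTC 3 alone, since these groups share no other number. For Krt14 these lines hold 0 and 4 counts. CTC against primary with this block uses CTC 3 as its only CTC line, by way of metastasis 3. Other causes of the turns were not tested. In metastasis against primary the Krt8 row was -0.46 with the fixed block, -0.23 with the random block and -0.03 summed with all entries of the locus number. In CTC against primary, which share no number, the fixed block gave -0.9 (Krt8), -0.85 (Krt18) and -0.97 (Vim), the random block -0.24 (Krt8) and -0.31 (Krt18), and limma-voom -0.07 (Krt18). In metastasis against CTC the fixed block gave -5.22 (Krt14, 0.78 without a block), -0.47 (Krt17, 3.42 without) and 1.69 (Krt19), the random block -0.67 (Krt14) and 1.36 (Krt19), limma-voom -0.22 (Krt8) and 1 (Krt19), and the sums with assembled entries -0.08 and -0.42 (Krt8). Other changes kept their sign but moved by over 1.5 times with the fixed block, and some of them follow. In CTC against primary Krt14 went to -1.27 (SE 2.88, unadjusted p 0.769 by edgeR) and Krt17 to -3.31. In metastasis against primary Krt19 went to -1.94, Vim to -1.37 and Krt18 to -0.94 (-0.27 without a block). The fixed block leaves 1 residual degree of freedom.

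Leaving out each derived line in turn turned the sign of 12 of the 28 changes, with these ranges of log2 change. In metastasis against primary they were -0.94 to 0.9 (Krt8), -8.51 to 0.45 (Krt17), -0.61 to 0.15 (Krt18) and -0.8 to 0.39 (Vim). In CTC against primary they were -0.49 to 0.69 (Krt8) and -0.17 to 0.36 (Krt18). In metastasis against CTC they were -1.2 to 0.91 (Krt8), -1.94 to 3.49 (Krt19), -2.36 to 2.99 (Krt14), -1 to 4.19 (Krt17) and -0.66 to 0.11 (Krt18). For Krt7 in the derived lines against parental it was -0.01 to 0.35. Krt7 stayed between -3.04 and -2.01 in metastasis against primary over 20 alternatives, and Krt14 between -10.09 and -4.63.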

Other observations

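A minor coding transcript of Vim (ENSMUST00000193675, 1777 bases, against 2193 bases for the main transcript ENSMUST00000028062) took 0.832% of Vim counts in the parental library. Its share was 4.44%, 2.49% and 1.48% in primary 5, 7 and 8. It was 8.92%, 7.53% and 1.52% in CTC 1, 3 and 6, and 3.85%, 4.81% and 1.09% in metastasis 5, 3 and 7. The share was thus highest in CTC 1 and CTC 3, which also have the highest Vim level, and under 2% in the 4 libraries with the lowest Vim level. StringTie estimates the division of reads between overlapping transcripts, and its part in this order was not tested.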
